A study of Mus musculus with 26 samples.

Results

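PD-1, its ligands and the SHP phosphatases were followed as 5 genes out of the 25814 listed for each library. Pdcd1 encodes the receptor PD-1, Cd274 the ligand PD-L1, Pdcd1lg2 the ligand PD-L2, Ptpn11 the phosphatase SHP-2 and Ptpn6 the phosphatase SHP-1. The genes were matched by name, and all 5 were found in every table and passed the filter on low counts in both comparisons. They were put forward with results of both comparisons known. Their values are therefore given as a description, without p-values. Where a count of these genes past the threshold of a fit over all genes is given, it stands beside the share of all genes and nothing is read from it.

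The libraries hold polyadenylated RNA of T cells taken by FACS from Peyer's patches, lymphoid follicles of the small intestine, in C57Bl/6 mice. One set is CD4+ T cells, with 6 libraries from conventionally fed mice and 6 from mice fed an elemental diet, in which free amino acids usually stand in for protein. The other set, all on the conventional diet, is 7 libraries of CD44+ and 7 of CD44- T cells, CD44 being an adhesion receptor that is high after antigen contact. The CD4+ libraries were made from 22 ng of RNA and the CD44 libraries from 1 ng with a low-input kit, so no gene's level was compared between the 2 sets. Beyond the strain, the labels give no age, sex or genotype, name no CD4 gate for the CD44 sorts and do not tie replicates to single mice. The spread that p-values measure is thus that between these samples, and may be technical.

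PD-1 is an inhibitory receptor that T cells put on their surface after antigen contact, and follicular helper T cells, which help B cells in germinal centres, carry much of it. PD-L1 is made by many cell types under interferon, while PD-L2 is more restricted to dendritic cells, macrophages and some B cells. When a ligand binds, tyrosines in the tail of PD-1 recruit SHP-2 and, less strongly, SHP-1, which remove phosphate from CD28 and from the T cell receptor machinery. SHP-2 also has a positive role in growth factor signalling in most cells, whereas SHP-1 is mostly a blood cell protein and an inhibitor.

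Depth was 16401589 to 25415205 exon reads for CD4+ cells, and for the CD44 sorts it was 7180390 to 13378353. The intron share of gene reads was 3.33% to 4.61% with the standard kit and 9.39% to 29.0% with the low-input kit. Summed levels of 8 T cell genes were 3407 to 4071 CPM (reads per 1000000 exon reads, scaled by TMM factors) on the conventional diet and 3297 to 3720 CPM on the elemental diet, with 0 of the 8 genes at 0 in any library. Of the 8, Cd5, Cd6 and Zap70 were called lower on the elemental diet and 0 were called higher. Cd44 message was at 47.1 to 137 CPM in CD44- libraries and at 88.3 to 359 CPM in CD44+ libraries, which overlap. Cd4 was at 38.2 to 478 CPM in CD44- libraries and at 12.4 to 68.9 CPM in CD44+ libraries.

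All coordinates are those of the tables, on mouse build GRCm38. Pdcd1 (ENSMUSG00000026285) lies on the minus strand of chromosome 1, from 94038305 to 94052553. Ptpn11 (ENSMUSG00000043733) lies on the minus strand of chromosome 5, from 121130533 to 121191397, and Ptpn6 (ENSMUSG00000004266) on the minus strand of chromosome 6, from 124720707 to 124738714. The ligand genes are neighbours on the plus strand of chromosome 19, Cd274 (ENSMUSG00000016496) from 29367455 to 29388095 and Pdcd1lg2 (ENSMUSG00000016498) from 29410919 to 29471157. The tables list 1 gene that overlaps any of the 5, Gm42930 on the same strand as Ptpn11, and it had no exon reads in any library.

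The 250 bases before the RefSeq start sites of Pdcd1 and Ptpn11 (build GRCm38.p6, minus strand, 5′ to 3′) are shown because these 2 genes were lower together on the elemental diet. The Pdcd1 window is chr1:94052554-94052803 and the Ptpn11 window chr5:121191398-121191647. Capitals mark matches to 5 motifs searched on both strands: TGGAAA (NFAT), TGANTCA (AP-1), TGACGTCA (cyclic AMP response element), TTCNNNGAA (interferon-activated site) and the interferon regulatory factor element (GAAA, 2 free bases, GAAA).
Pdcd1: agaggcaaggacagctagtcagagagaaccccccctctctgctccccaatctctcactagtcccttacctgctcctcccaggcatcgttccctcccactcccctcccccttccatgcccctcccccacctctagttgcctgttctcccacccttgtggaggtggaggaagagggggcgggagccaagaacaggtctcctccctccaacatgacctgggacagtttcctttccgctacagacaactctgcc
Ptpn11: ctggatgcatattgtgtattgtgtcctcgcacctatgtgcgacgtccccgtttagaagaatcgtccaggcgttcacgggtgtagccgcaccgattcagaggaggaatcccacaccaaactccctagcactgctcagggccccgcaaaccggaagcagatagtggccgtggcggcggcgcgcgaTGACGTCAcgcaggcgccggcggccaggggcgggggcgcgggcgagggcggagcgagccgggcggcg
The Pdcd1 window holds 0 matches. The Ptpn11 window holds 1 match, TGACGTCA, from 67 to 60 bases before the start. That motif stood in 1.55% of 32851 mouse windows of this length, against 18.6% for TGGAAA, 6.75% for TGANTCA, 7.02% for TTCNNNGAA and 2.98% for the interferon regulatory factor element. These matches describe letters and not bound sites.

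The receptor was lower on the elemental diet and the ligands were not. Pdcd1 stood at 131 to 156 CPM with a median of 151 CPM on the conventional diet. On the elemental diet it stood at 73.5 to 106 CPM with a median of 89.4 CPM. Every elemental library was below every conventional library. The means were 146 ± 11.6 and 88.7 ± 11.7 CPM (SD, n = 6 each), a fitted log2 fold change of -0.72 ± 0.09 (SE). Each value rests on 2133 to 3960 conventional and 1425 to 2124 elemental reads.

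**Figure D1:**
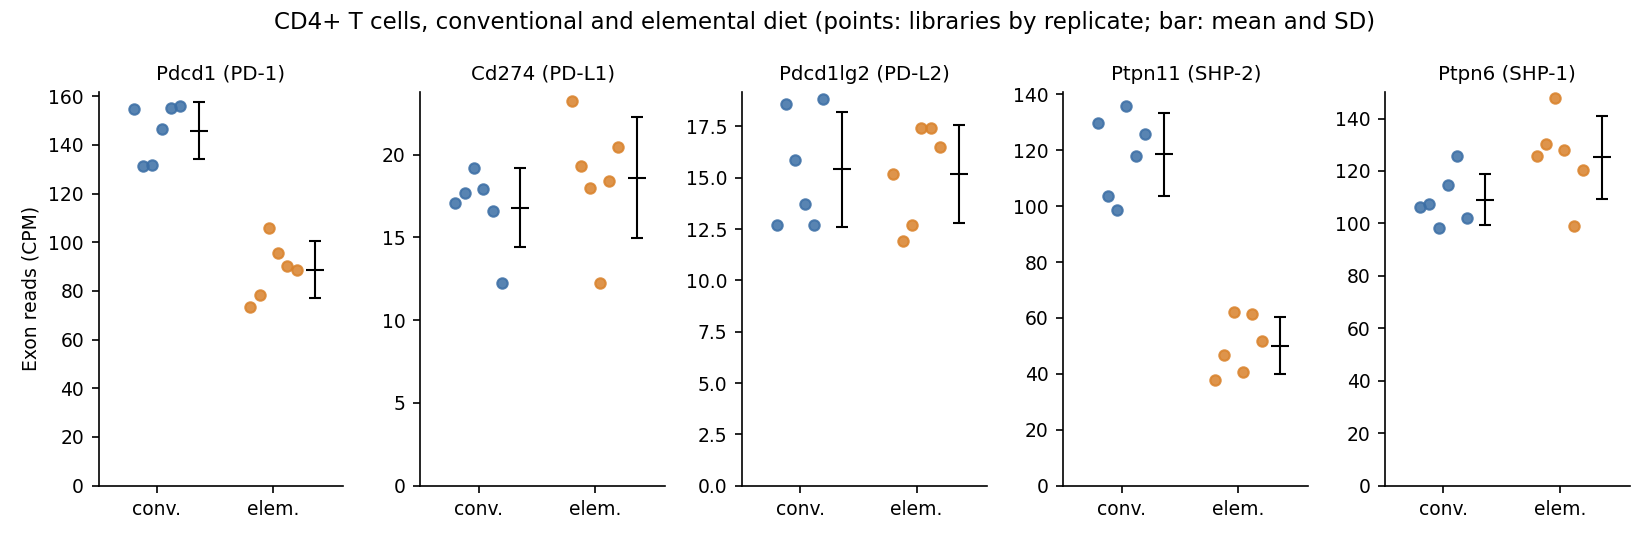
Exon reads (CPM, axes from 0) of the 5 genes in CD4+ T cell libraries on the conventional (conv., blue) and elemental (elem., orange) diet; points are libraries in replicate order and black bars the mean and SD of 6. The 2 diets do not overlap for Pdcd1 (131 to 156 against 73.5 to 106 CPM) and Ptpn11 (98.6 to 136 against 37.8 to 62.3 CPM), and overlap for the other 3 genes.

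Both ligand genes were low in CD4+ cells and much alike on the 2 diets. Cd274 stood at 12.3 to 19.2 CPM with a median of 17.4 CPM on the conventional diet. It stood at 12.2 to 23.2 CPM with a median of 18.9 CPM on the elemental diet. These ranges overlap at both ends. Conventional replicate 6 and elemental replicate 4 were the lowest of their groups. The fitted log2 fold change was 0.15 ± 0.15, with bounds of -0.15 and 0.44 (approximate 95% interval from the SE, as for all bounds here). All such bounds use the normal distribution, which makes them somewhat narrow for so few libraries. Pdcd1lg2 stood at 12.7 to 18.8 CPM (median 14.8) and at 11.9 to 17.4 CPM (median 15.8), again overlapping. Its log2 fold change was -0.02 ± 0.15, with bounds of -0.31 and 0.28. Between 202 and 484 reads lay behind each value for Cd274 and between 223 and 451 for Pdcd1lg2. Changes within these bounds were not excluded at this depth and spread. The bounds are not a limit of detection, and larger changes could also go uncalled.

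Of the phosphatases, Ptpn11 was lower on the elemental diet and Ptpn6 overlapped between diets. Ptpn11 stood at 98.6 to 136 CPM with a median of 122 CPM on the conventional diet and at 37.8 to 62.3 CPM with a median of 49.4 CPM on the elemental diet. The highest elemental library was thus below the lowest conventional one. The means were 119 ± 14.8 and 50.1 ± 10.3 CPM (n = 6 each), and the log2 fold change was -1.24 ± 0.13, or a 2.37-fold higher level on the conventional diet. Ptpn6 stood at 98.4 to 126 CPM (median 107) and at 98.9 to 148 CPM (median 127). These ranges overlap, 5 of 6 elemental libraries lay above the conventional mean, and the log2 fold change was 0.20 ± 0.09 (bounds 0.01 and 0.38). Since these bounds are somewhat narrow, they do not exclude equal levels across the diets. Ptpn6 was not among the genes called.

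In the edgeR quasi-likelihood fit over 11938 genes, 7.75% were called lower and 9.68% higher on the elemental diet at an adjusted p under 0.05. Pdcd1 and Ptpn11 were among those called lower, and 0 of the 5 genes were called higher. All conventional libraries exceeded all elemental ones in 2.35% of genes, and the reverse held in 4.82%. Together 17.4% were called. Since the genes were put forward with these values known, nothing is read from the count of 2. A log2 fold change as low as that of Ptpn11 was found in 2.05% of tested genes, and one as low as that of Pdcd1 in 8.30%. Over all genes, 2081 were called, from 1299 without conventional replicate 4 and 1316 without elemental replicate 4 to 3865 without conventional replicate 6.

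Set per kilobase of exon, the 5 levels lay apart on the conventional diet, while 2 pairs of them lay within their spread on the elemental diet. On the conventional diet Pdcd1 was at 75.6 ± 6.03 CPM per kilobase, Ptpn6 at 40.8 ± 3.67 and Ptpn11 at 21.1 ± 2.65. The ligands followed, with Pdcd1lg2 at 9.37 ± 1.71 and Cd274 at 4.64 ± 0.658. Each neighbour in that order differed by more than its SD. On the elemental diet Ptpn6, at 46.8 ± 5.93, and Pdcd1, at 46.0 ± 6.05, lay within their spread, and so did Pdcd1lg2 (9.24 ± 1.45) and Ptpn11 (8.93 ± 1.84). Cd274 remained the lowest at 5.14 ± 1.01.

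The balance of the phosphatases was taken library by library. The ratio of Ptpn11 to Ptpn6 per kilobase was 0.448 to 0.588 with a median of 0.521 on the conventional diet. It was 0.143 to 0.296 with a median of 0.186 on the elemental diet, without overlap. The ratio of Pdcd1 to Ptpn11 was 3.14 to 3.88 on the conventional diet and 4.26 to 6.85 on the elemental diet, also without overlap. Ptpn11 was thus lower relative to both other genes. In the ratio of Cd274 to Pdcd1lg2, the diets overlapped, at 0.296 to 0.611 and 0.318 to 0.735.

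**Figure D2:**
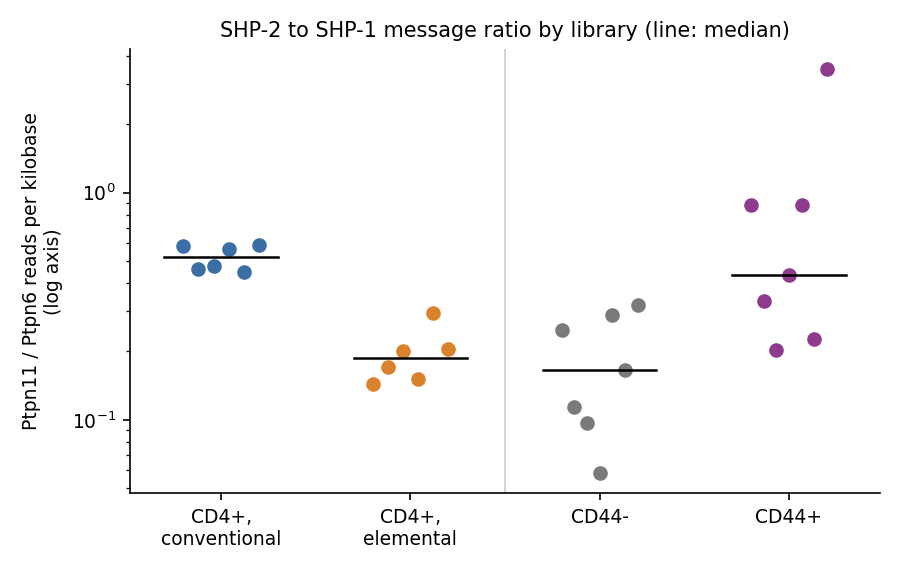
Ratio of Ptpn11 (SHP-2) to Ptpn6 (SHP-1) exon reads per kilobase in each library, on a log axis, for the 4 groups; the line is the median and the vertical line parts the 2 library kits. The conventional libraries (0.448 to 0.588) lie above the elemental ones (0.143 to 0.296), while the CD44- (0.0583 to 0.322) and CD44+ (0.203 to 3.49) libraries overlap.

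Other readouts of the same tables describe the 2 genes further. Reads across exon junctions of Ptpn11 numbered 8.09 to 17.0 per 1000000 exon reads on the conventional diet and 2.38 to 5.32 on the elemental diet, without overlap. Those of Pdcd1 were at 10.2 to 20.7 and 8.66 to 12.2, which overlap. Intron reads of Ptpn11 averaged 4.92 ± 2.13 and 2.37 ± 1.10 on the same scale on the conventional and elemental diet, with overlapping ranges of 3.38 to 9.05 and 1.08 to 4.05. Intron reads of Pdcd1 averaged 3.66 ± 0.654 and 3.82 ± 1.23, so they did not follow its exon reads, though these means rest on only 35 to 111 reads per library. Reads placed at a single site made up 97.9% and 97.5% of Ptpn11 exon reads on the 2 diets and 100% of Pdcd1 reads.

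Longer genes were lower on the elemental diet across the whole table. With the tested genes in 4 equal classes by exon length, the median log2 fold change was 0.16 in the shortest class, 0.03 and -0.09 in the next ones and -0.26 in the longest class, which begins at 4943 bases. Ptpn11, with 5611 bases, belongs to the longest class, in which 13.9% of genes were called lower, and 2.55% of that class had a log2 fold change as low as its own. Pdcd1, with 1930 bases, belongs to the shortest class, in which 3.11% were called lower. The part of length in the difference of Ptpn11 was not tested.

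**Figure D3:**
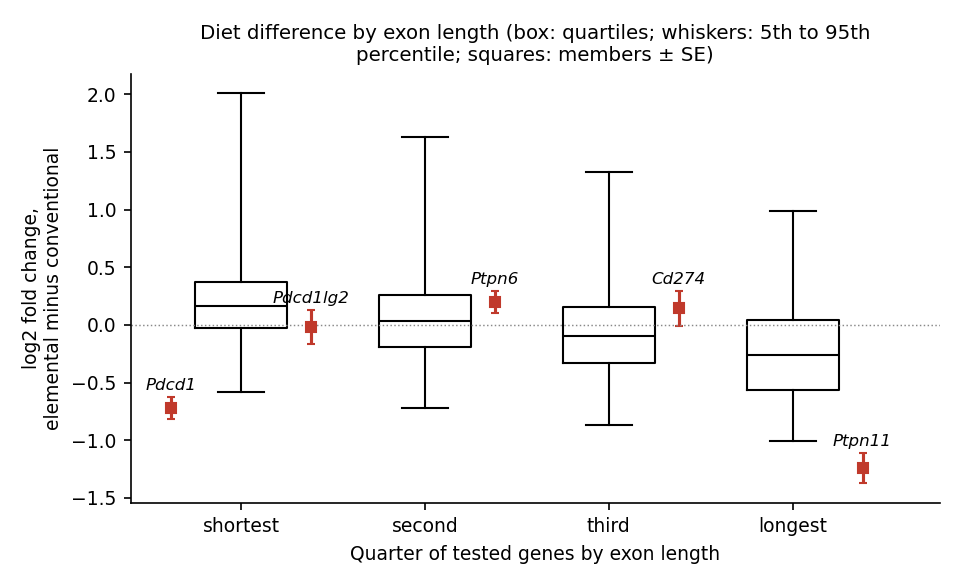
Log2 fold change (elemental minus conventional) of all tested genes in 4 classes by exon length (boxes: quartiles and median; whiskers: percentiles 5 and 95) with the 5 genes as squares ± SE. The median falls from 0.16 in the shortest to -0.26 in the longest class; Pdcd1 (-0.72) and Ptpn11 (-1.24) lie below the medians of their own classes.

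Markers of the cells that carry these genes moved in the same libraries. In bulk samples, fewer cells of a type and less RNA per cell cannot be told apart. The 9 follicular helper genes summed to 865 to 1124 CPM on the conventional diet and 486 to 745 CPM on the elemental diet, without overlap, and 7 of 9 were called lower (median log2 fold change -1.05, against -0.01 over all genes). The 9 B cell genes summed to 342 to 652 and 195 to 446 CPM, with 3 called lower, and the 5 germinal centre B cell genes to 58.5 to 121 and 20.2 to 43.6 CPM, with 4 called lower. The 9 myeloid and dendritic genes measured, whose cells can make both ligands and SHP-1, summed to 512 to 737 and 879 to 1277 CPM, and all 9 were called higher. The 8 epithelial genes summed to 51.2 to 606 and 294 to 837 CPM, with 3 called higher. The 2 CD8 genes summed to 35.4 to 70.4 and 31.2 to 63.7 CPM. Of these, Cd8b1 was called higher (0.54 ± 0.17) and Cd8a was not called (-0.63 ± 0.27). None of these markers was at 0 in a CD4+ library. The part of these cells in the values of Pdcd1, Ptpn11, Ptpn6 and the ligands was not tested.

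The regulators and partners of PD-1 were read from lists chosen by role, of 49 genes in all. They were chosen with earlier results of these data known, so their counts and p-values are a description. Beside every such count by diet stand the shares of all genes, 9.68% called higher and 7.75% called lower. Every gene of the lists was tested in the diet comparison, where 8 were called higher and 13 lower. Their median log2 fold change was -0.23, against -0.01 over all genes. Without conventional replicate 6 the lower count was 22, and with all 4 groups in 1 fit both counts were 0.

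Of 7 regulators of PD-1, 3 fell and 0 rose. Tox, a nuclear factor that sustains PD-1 expression, fell from 81.2 ± 15.2 to 48.1 ± 7.93 CPM (-0.76 ± 0.14, edgeR adjusted p = 0.00203). Irf4, a factor induced by receptor signals, fell from 33.9 ± 4.18 to 21.0 ± 3.51 CPM (-0.69 ± 0.12). In both, all 6 elemental libraries lay below all conventional ones. Nfatc1, the calcium-regulated factor that switches Pdcd1 on, had -0.70 ± 0.19 (edgeR adjusted p = 0.0214). Its call was lost without conventional replicate 4 or elemental replicate 6, with edgeR adjusted p of 0.0502 at most. Prdm1, which encodes the repressor Blimp-1, was at 0.04 ± 0.41 and was not called. Batf (-0.23 ± 0.10), Tbx21 (-0.38 ± 0.19) and Fbxo38 (-0.53 ± 0.21) were not called either. The list holds activators and repressors alike, so its direction gives no expected sign for Pdcd1.

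Of 4 partners of the ligands, 3 rose and 0 fell. Cmtm4 and Cmtm6 encode membrane proteins that keep PD-L1 from being degraded. Cmtm4 rose from 14.3 ± 1.88 to 21.3 ± 3.62 CPM without overlap (0.57 ± 0.14, edgeR adjusted p = 0.0113). Cmtm6 rose from 326 ± 40.9 to 402 ± 32.0 CPM (0.30 ± 0.09, edgeR adjusted p = 0.0306), and Rgmb, a receptor of PD-L2, had 0.81 ± 0.27 (edgeR adjusted p = 0.0473). Leaving out any of 7 libraries (conventional replicate 1, 2, 4 or 5, or elemental replicate 1, 4 or 6) ended the Cmtm6 call (edgeR adjusted p 0.0514 to 0.075). That of Rgmb was lost in 10 of 12 such fits (0.0523 to 0.116), all but those without conventional replicate 3 or elemental replicate 4, and also with no filter on low counts and with uniquely placed reads alone. Cd80, which PD-L1 binds on the same membrane, was at about 1 CPM and was not called (0.28 ± 0.40).

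Genes of the interferon route that induces PD-L1 went both ways. Ifng, the cytokine itself, fell from 5.61 ± 1.56 to 1.82 ± 0.377 CPM (-1.63 ± 0.25, edgeR adjusted p = 6.35e-04). Its receptor chains rose, Ifngr1 by 0.44 ± 0.11 and Ifngr2 by 0.71 ± 0.17 on the log2 scale. The kinase gene Jak2 fell (-0.98 ± 0.19), while Jak1 (-0.91 ± 0.32) and Irf1 (0.23 ± 0.08) were not called. That made 2 higher and 2 lower of 7.

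Among 12 genes of the signalling chain that PD-1 acts on, 3 fell and 0 rose, with a median log2 fold change of -0.23. Cd28, the co-stimulatory receptor that SHP-2 dephosphorylates, fell from 320 ± 28.2 to 232 ± 24.5 CPM without overlap (-0.47 ± 0.09, edgeR adjusted p = 0.00256). Zap70, the kinase of the T cell receptor, fell from 300.3 ± 10.7 to 253 ± 12.6 CPM (-0.25 ± 0.06), and the phospholipase gene Plcg1 had -0.80 ± 0.19. Lck, the kinase upstream of both, was at 784 ± 50.4 and 784 ± 49.7 CPM.

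Membrane proteins that dock SHP-1 or SHP-2 went both ways, 3 higher and 3 lower of 11. Btla, an inhibitory receptor of T and B cells, fell from 87.7 ± 13.4 to 57.3 ± 12.2 CPM (-0.61 ± 0.13, edgeR adjusted p = 0.00693), and Cd5 (-0.35 ± 0.10) and the B cell receptor gene Cd22 (-0.90 ± 0.24) also fell. The Cd5 call did not hold in 5 fits, those lacking conventional replicate 1, conventional replicate 5 or elemental replicate 4, 5 or 6 (edgeR adjusted p 0.0544 to 0.0698), and the Cd22 call without conventional replicate 4 (0.0502). Lair1 (1.29 ± 0.19) and Sirpa (1.35 ± 0.26), which myeloid cells express, rose without overlap, next to the rise of the myeloid markers given above. Sit1, a T cell adaptor that binds SHP-2, rose from 77.5 ± 7.49 to 95.3 ± 5.34 CPM (0.30 ± 0.08).

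Of 8 other tyrosine phosphatases, 2 fell and 0 rose. Ptpn22, which dephosphorylates Lck and Zap70, fell from 122 ± 14.8 to 79.7 ± 14.7 CPM (-0.62 ± 0.12, edgeR adjusted p = 0.00269), and Ptpn1 had -0.35 ± 0.09. Ptprc, which encodes CD45, had -1.08 ± 0.35 but was not called (edgeR adjusted p = 0.0525). The log2 fold changes of the 8 ran from -1.08 to 0.38, and that of Ptpn11 was lower than each.

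**Figure D4:**
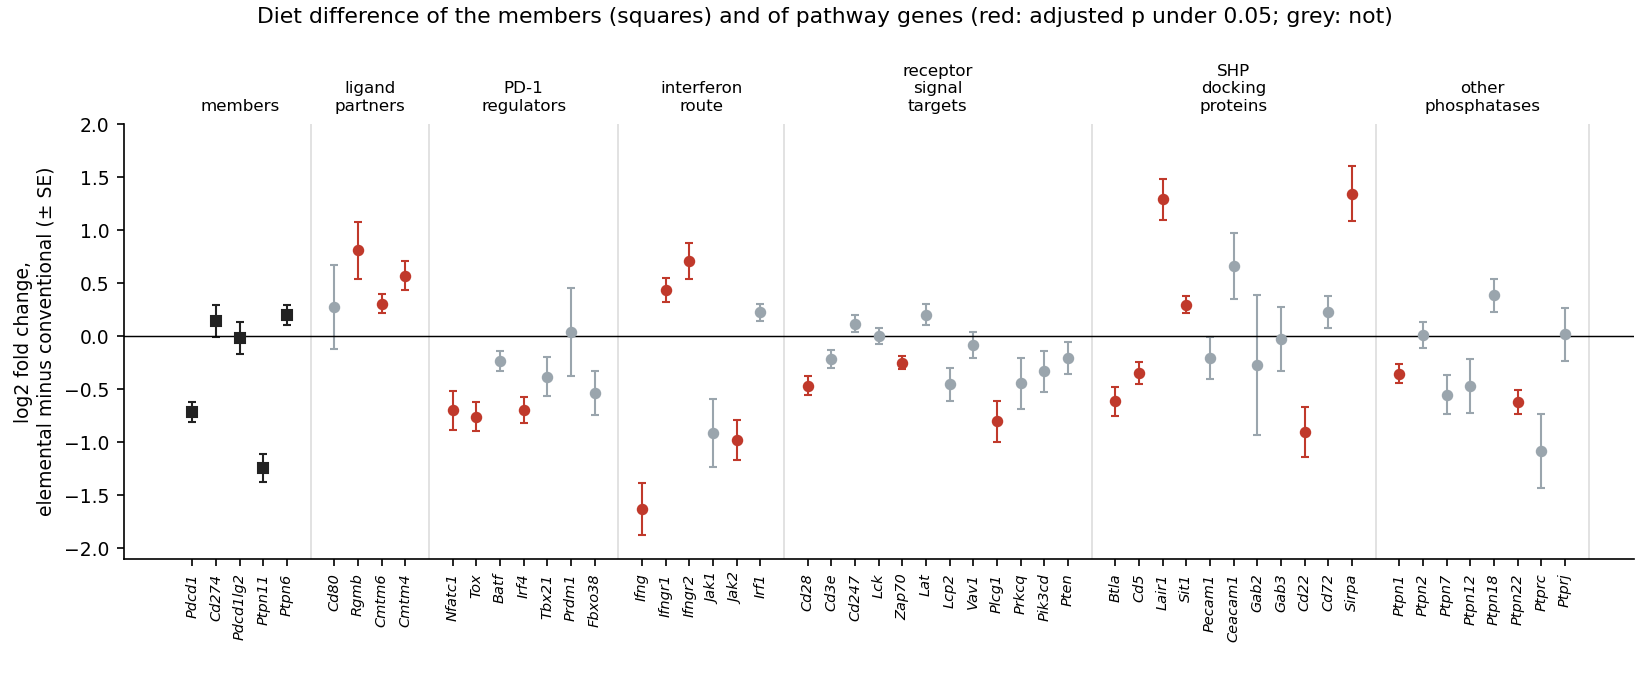
Log2 fold change (elemental minus conventional, ± SE) of the 5 genes (black squares, no test) and of pathway genes by role (circles; red, edgeR adjusted p under 0.05; grey, not). Of the circles, 8 are red above 0 and 13 red below 0; PD-1 regulators lie mostly below 0 and ligand partners above.

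The genes closest to each in the CD4+ libraries were found by the root mean square difference of centred log2 CPM over 12 libraries, among 8996 genes. This version was chosen after the values were seen. For Ptpn11 they were Il21 (0.19), Cxcr5 (0.19), Myb (0.19), Lag3 (0.20), Tnfsf8 (0.20) and S1pr2 (0.21), where the median gene was at 0.70. Il21 is the cytokine and Cxcr5 the follicle homing receptor of follicular helper cells. For Pdcd1 they were Lax1 (0.12), Tubb2a (0.12), Cdc25b (0.13), Slamf6 (0.13), Mcm7 (0.13) and S100a11 (0.13), against a median of 0.47. The centring kept the difference between diets, so genes near Ptpn11 or Pdcd1 over the 12 libraries had to share much of it. All 12 genes accordingly had log2 fold changes between -1.41 and -0.62 on the elemental diet, and nothing is read from that. Over all 26 libraries, as first specified, the nearest gene to Pdcd1 was Nap1l1 at 0.61, followed by Hmgb1, Sept9, B4galt7, Tbc1d4 and Hcls1, against 0.80 for Pdcd1's own distance from a flat line. For Cd274 the nearest were Fgl2 at 0.59, Pde4b and N4bp1, against 0.92.

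Between CD44+ and CD44- cells, the groups overlapped for all 5 genes, and the fitted difference was largest for Pdcd1lg2. Pdcd1lg2 stood at 1.27 to 40.5 CPM with a median of 7.50 CPM in CD44- libraries and at 21.1 to 117 CPM with a median of 48.1 CPM in CD44+ libraries. All 7 CD44+ libraries lay above the CD44- mean. The ranges overlap through CD44- replicates 1 and 8, at 36.2 and 40.5 CPM. The means were 15.6 ± 15.99 and 56.3 ± 31.2 CPM (n = 7 each), with a log2 fold change of 1.85 ± 0.72 (bounds 0.44 and 3.26). It lay between 1.57 and 2.30 when any 1 library was left out. Its intron reads averaged 11.1 ± 9.55 per 1000000 exon reads in CD44- and 52.1 ± 30.4 in CD44+ libraries.

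**Figure D5:**
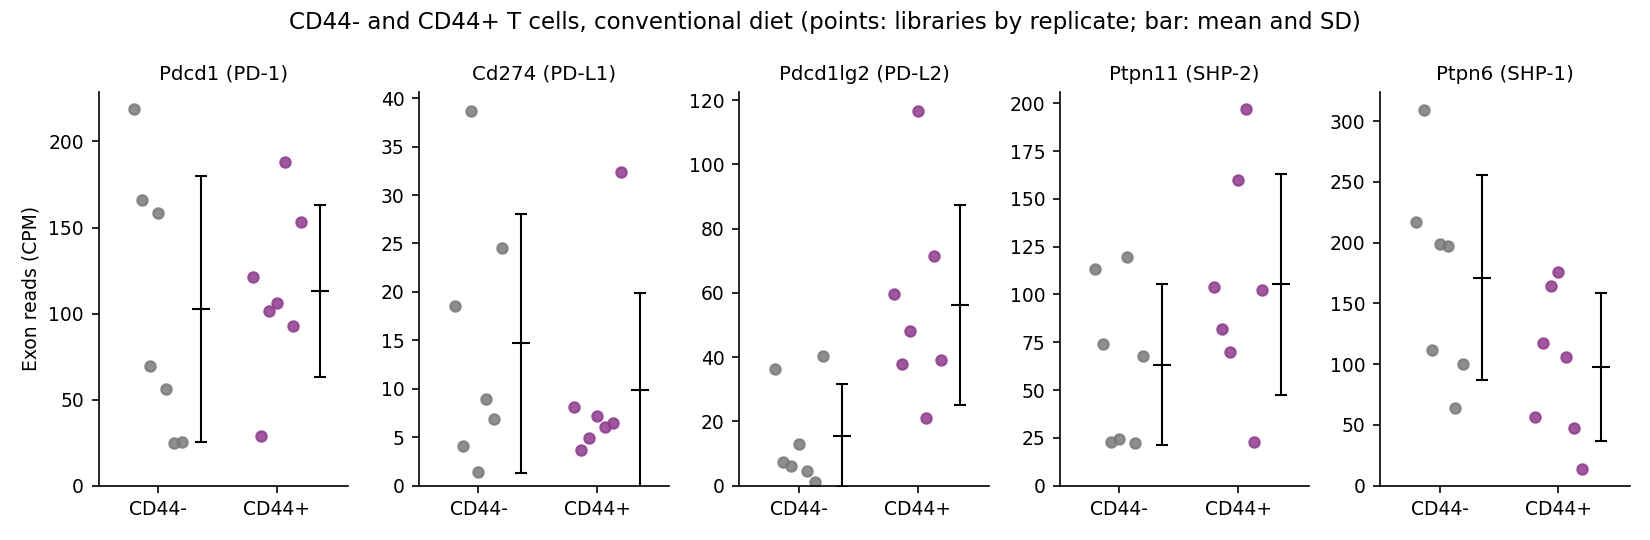
Exon reads (CPM, axes from 0, where 2 of the SD bars are clipped) of the 5 genes in CD44- (grey) and CD44+ (purple) libraries; points are libraries in replicate order and black bars the mean and SD of 7. The groups overlap for all 5 genes, and Pdcd1lg2 has medians of 7.50 and 48.1 CPM.

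Pdcd1 itself stood at 24.8 to 219 CPM (median 69.3) in CD44- libraries and at 28.7 to 188 CPM (median 106) in CD44+ libraries. These ranges nearly coincide, and CD44- replicates 1, 2 and 5 held 159 to 219 CPM. The log2 fold change was 0.14 ± 0.52 (bounds -0.89 and 1.16), and leaving out 1 library moved it between -0.03 and 0.44. Cd274 stood at 1.42 to 38.7 CPM and at 3.725 to 32.4 CPM, with medians of 8.90 and 6.46 CPM and a log2 fold change of -0.58 ± 0.79. In CD44+ cells 6 of 7 libraries held at most 8.10 CPM and replicate 8 held 32.4 CPM. Leaving out libraries 1 at a time moved its log2 fold change between -1.27 and -0.12.

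Both phosphatases had overlapping groups and bounds that span 0. Ptpn11 stood at 22.3 to 119 CPM (median 67.7) in CD44- and at 22.7 to 197 CPM (median 102) in CD44+ libraries, a log2 fold change of 0.73 ± 0.53 (bounds -0.31 and 1.78). Ptpn6 stood at 63.9 to 309 CPM (median 197) and at 13.99 to 176 CPM (median 106), a log2 fold change of -0.81 ± 0.49 (bounds -1.77 and 0.14). Ratios of Ptpn11 to Ptpn6 per kilobase had medians of 0.166 in CD44- and 0.434 in CD44+ libraries, and their ranges overlap.

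Spread limits every one of these CD44 values. The SD was 44.3% to 103% of the mean for the 5 genes in the CD44 groups, against 7.98% to 20.6% in the CD4+ groups. Introns took 19.5% to 77.8% of the genes' reads there, against 0.646% to 12.4% in the CD4+ groups. In the edgeR fit over 8343 genes, 0.300% were called higher and 0.467% lower in CD44+ cells, together 0.767%, and 0 of the 5 genes were called. Groups without overlap were found in 0.396% of genes (CD44+ higher) and 0.360% (CD44+ lower), and in 0 of the 5.

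Of the 49 pathway genes, 43 were tested between CD44+ and CD44- cells and 0 were called by edgeR's quasi-likelihood test. At an unadjusted p under 0.05, 2 were higher (Irf4 and Cd3e) and 6 lower (among them Cd247, Lck, Lcp2, Ptpn2 and Ptprc), while 5.69% of all genes tested were higher and 7.66% lower at that threshold. Lcp2, which encodes the adaptor SLP-76, was at 326 ± 194 and 104 ± 43.7 CPM and was the 1 gene called lower by DESeq2. It was also the 1 gene called by edgeR without CD44- replicate 6. The median log2 fold change of the 43 genes was 0.02, against 0.03 over all genes.

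Markers of other cells were summed in the CD44 sorts too, where 0 genes of these lists were called. The 9 follicular helper genes summed to 1007 to 2358 CPM in CD44- and 2420 to 3459 CPM in CD44+ libraries, without overlap. Much of that sum was Sh2d1a, at 800 ± 285 and 1376 ± 289 CPM. The 8 genes tested had a median log2 fold change of 0.79, against 0.03 over all genes. They went both ways, from -0.75 ± 0.51 (Il21) to 1.39 ± 0.99 (Tox2), with Cxcr5 at -0.05 ± 0.75. Maf was at 1.14 ± 0.33 and Bcl6 at 1.15 ± 0.35, the latter without overlap, as 0.396% of all genes were. At an unadjusted edgeR p under 0.05, 3 were higher (Bcl6, Sh2d1a and Maf) and 0 lower. Of all genes tested, 5.69% were higher and 7.66% lower at that threshold. The 9 B cell genes summed to 219 to 1319 and 540 to 1861 CPM, with Pax5, Fcer2a, Cr2 and Blk among those at 0 in a library of each group. The 5 germinal centre B cell genes summed to 5.22 to 197 and 81.3 to 507 CPM, and Gcsam and Mef2b were at 0 in a library of each group. The 9 myeloid and dendritic genes summed to 731 to 1147 and 984 to 1316 CPM. The 8 epithelial genes summed to 25.9 to 229 and 29.2 to 148 CPM. The 2 CD8 genes summed to 26.5 to 130 and 49.0 to 161 CPM, and Cd8a was at 0 in a library of each group. Apart from the follicular helper genes, the summed levels of the 2 sorts overlap, and the part of these cells in the Pdcd1lg2 values was not tested.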

How the data were processed

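Per the file headers, the authors deposited 1 table per library with whole counts of exon, intron, junction and total gene reads for 25814 genes. Per the submitters' processing notes, reads were placed on GRCm38; which aligner and counter were used is not given in the sources here. Exon counts were filtered with edgeR's filterByExpr, scaled by TMM and tested two-sided by edgeR's robust quasi-likelihood test (edgeR 4.0.16, R 4.3.3), on each pair of groups alone, with Benjamini-Hochberg adjustment over all genes tested. Genes with an adjusted p under 0.05 were called, and the SE is the log2 fold change over the square root of F. Log2 CPM used a prior count of 2. DESeq2 1.42.0, other scaling, read classes, filters, designs and left-out libraries were alternatives. Exon lengths came from the tables. The fits were tested on simulated data. Tables and plots used Python 3.11.15.

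The members and lists were chosen with earlier results of these data known. All 5 genes and any gene of the lists could be named, beside the genes nearest in pattern. Itgam, a listed myeloid marker, was not analysed here. No libraries of a group were duplicates (lowest chi-square per degree of freedom 11.9). Promoter windows are RefSeq's, for which all 5 genes matched. Some genes of the lists are counted but not reported here by name.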

Additional observations from a re-analysis of the deposited data

Results flagged for a closer look

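Of 20 sets of libraries (5 genes in 4 groups) checked for a library far from the rest, 2 stood out, both for Cd274. Chance alone would give about 1 in 20. CD44+ replicate 8 held 32.4 CPM, while the next highest CD44+ library held 8.10 CPM. Conventional replicate 6 held 12.3 CPM, while the next lowest conventional library held 16.6 CPM. Without CD44+ replicate 8, the log2 fold change of Cd274 between the CD44 sorts was -1.27, and without conventional replicate 6 that between the diets was 0.07.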

How the results depend on the processing

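The 5 genes' log2 fold changes moved by less than the spread between libraries under all 20 alternatives of the diet comparison and all 21 of the CD44 comparison. Leaving out 1 of 6 or 7 libraries can hardly move a group mean that far, so little is learned from those fits. The spread between CD44 libraries was also wide, and let pass values from -1.27 to -0.12 for Cd274 and -0.03 to 0.45 for Pdcd1. Ptpn11 lay between -1.32 and -1.15 and Pdcd1 between -0.78 and -0.65 across the diet alternatives. Fitting all 4 groups together gave, of 11975 genes tested, 2 called by diet (0 pathway genes higher and 0 lower). It gave 1748 by CD44 sort (3 pathway genes higher and 4 lower), where the median log2 fold change of all genes was 0.12 in place of 0.03. Pdcd1 and Ptpn11 were called lower by diet in 19 of the 20 alternatives, and not in this fit, where their SEs were 0.40 and 0.46. By CD44 sort, Pdcd1lg2 was called in this fit alone of the 21. Leaving out conventional replicate 6 and elemental replicate 1 together gave 3379 called genes, with 23 pathway genes lower. Leaving out 1 library at a time gave 1299 to 3865 called genes by diet, with 11 to 22 pathway genes lower, and 36 to 87 by CD44 sort, with 0 to 1 pathway genes lower. The low CD44 counts were 36 without CD44+ replicate 5 or 7, 37 without CD44+ replicate 6 and 41 without CD44- replicate 4. DESeq2 called 401 genes by CD44 sort, with 1 pathway gene lower, and total gene reads gave 101. With the replicate number as a block, 2033 genes were called by diet and 37 by CD44 sort. Between the CD44 sorts, Pdcd1lg2 then had a log2 fold change of 2.38 ± 0.83, against 1.85 ± 0.72 in the main fit. The calls of Rgmb and Cd22 by diet were lost with the block, and that of Rgmb also without conventional replicate 6 and elemental replicate 1 together. Same-numbered libraries correlated by -0.13 to 0.21 between diets and by 0.01 to 0.07 between CD44 sorts. Only 1 of 6 and 1 of 7 correlated best with its own number. Pairing by number was thus not detected, but correlations this weak cannot exclude it. The 2 CD44 sorts carry the same replicate numbers, with the same number missing from both, so their libraries may be paired. The main fit took no account of pairing. Beyond the fewer libraries, the cause of these moves was not tested. Depth limits the ligand genes most, with as few as 10 exon reads in a CD44- library.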
